A study of Mus musculus with 15 samples.

Results

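The aryl hydrocarbon receptor and its classical target genes were examined in 4T1 cells, an established triple-negative mammary carcinoma line of the mouse. The 7 genes Ahr, Arnt, Ahrr, Cyp1a1, Cyp1b1, Tiparp and Aldh3a1 were taken by their symbols from the 40402 genes of the count table, and all 7 were found. The study grew 4T1 cells in serum-supplemented medium and left them untreated or treated them, a day after seeding, with 1 of 4 berry preparations at a shared concentration. BLA was a blackberry extract, BLU a blueberry extract, and BLA-A and BLU-A were gold nanoparticles made with the blackberry and the blueberry extract. The cells of all groups carried the same WT genotype label and shared the line, the medium and the RNA protocol. All were grown without stroma or immune cells, which limits them as a model of a tumour. No group received gold without a berry, so the metal and the berry material in a nanoparticle cannot be told apart.

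The receptor is a transcription factor of the bHLH-PAS family that rests in the cytoplasm with the chaperone HSP90 and moves to the nucleus when it binds a ligand. Its ligands include dioxins, tryptophan metabolites and several plant polyphenols, some of which act as antagonists. In the nucleus it pairs with ARNT and binds a short core motif near its targets. CYP1A1 and CYP1B1 oxidise many of the ligands, while the repressor AHRR and the ADP-ribosyltransferase TIPARP restrain the receptor that induced them.

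Each condition had 3 columns of counts, which the study's reports describe as read subsets of 1 sequenced library. Within each condition the columns differed by less than the sampling noise, with a chi-square per degree of freedom between 0.0951 and 0.475, and their mean was counted as 1 library. The 5 libraries held 25613711 to 26956308 counts on genes, and 3 counts equalled 0.109 to 0.130 CPM, the share of a gene in its library's counts after scaling by the trimmed mean of M-values (TMM). The BLA-A library stood apart in that scaling, with a factor of 0.904 beside 1.01 to 1.03 in the others. With 1 library per condition no treatment has a replicate check, intervals in brackets are 95% intervals for counting error only, and a fold change compares 2 libraries. The epithelial markers Epcam, Cdh1, Krt7, Krt8, Krt18 and Krt19 were above 3 counts in every library and summed to between 955 and 1724 CPM. The 6 leukocyte markers summed to between 1.27 and 4.69 CPM and the 4 endothelial markers to between 2.94 and 7.04 CPM. The 6 fibroblast markers summed to between 88.2 and 104 CPM, nearly all of it from Pdgfra, while Lum was at 0 in every library.

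The promoters of the 5 targets are printed from GRCm39 because the receptor is known to act through its core motif at such sites. Each run of 300 bases, 250 before and 50 after the start of the canonical GENCODE M39 transcript, reads 5′ to 3′ on the gene's strand, and capitals mark the core GCGTG or its reverse complement CACGC. Cyp1a1 lies on the plus strand with the window chr9:57603892-57604191, Ahrr on the minus strand with chr13:74440413-74440712 and Tiparp on the plus strand with chr3:65435070-65435369. Cyp1b1 lies on the minus strand with chr17:80022483-80022782 and Aldh3a1 on the plus strand with chr11:61099134-61099433.
Cyp1a1: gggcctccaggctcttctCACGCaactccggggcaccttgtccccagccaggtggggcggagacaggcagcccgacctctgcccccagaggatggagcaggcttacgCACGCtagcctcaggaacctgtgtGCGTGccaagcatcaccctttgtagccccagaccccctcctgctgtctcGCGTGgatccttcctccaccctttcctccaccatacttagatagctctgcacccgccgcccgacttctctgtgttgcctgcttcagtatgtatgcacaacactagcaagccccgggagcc
Ahrr: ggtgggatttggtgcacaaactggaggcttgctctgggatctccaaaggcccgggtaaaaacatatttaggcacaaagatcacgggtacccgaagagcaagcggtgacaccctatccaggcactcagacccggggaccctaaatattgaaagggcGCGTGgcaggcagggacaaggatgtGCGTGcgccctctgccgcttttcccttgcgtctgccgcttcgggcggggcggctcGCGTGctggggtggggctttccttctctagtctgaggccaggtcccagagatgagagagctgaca
Tiparp: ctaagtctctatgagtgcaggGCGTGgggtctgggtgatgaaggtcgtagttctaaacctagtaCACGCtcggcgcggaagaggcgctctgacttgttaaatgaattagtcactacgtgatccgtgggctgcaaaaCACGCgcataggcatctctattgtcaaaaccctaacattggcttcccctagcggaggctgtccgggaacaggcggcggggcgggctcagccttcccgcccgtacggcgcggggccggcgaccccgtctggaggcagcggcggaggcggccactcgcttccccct
Cyp1b1: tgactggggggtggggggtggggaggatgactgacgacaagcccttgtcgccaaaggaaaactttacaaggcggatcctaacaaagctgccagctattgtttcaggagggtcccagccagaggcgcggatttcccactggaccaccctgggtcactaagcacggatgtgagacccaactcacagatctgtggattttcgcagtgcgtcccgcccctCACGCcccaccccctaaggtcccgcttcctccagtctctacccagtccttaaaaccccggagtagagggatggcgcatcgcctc
Aldh3a1: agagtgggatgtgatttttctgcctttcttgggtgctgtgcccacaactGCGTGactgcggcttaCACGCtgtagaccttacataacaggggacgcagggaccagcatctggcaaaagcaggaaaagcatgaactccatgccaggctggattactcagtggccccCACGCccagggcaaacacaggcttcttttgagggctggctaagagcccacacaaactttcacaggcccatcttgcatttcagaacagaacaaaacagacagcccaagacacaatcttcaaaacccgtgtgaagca

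Both strands were searched for the core and for the longer motif TNGCGTG, of which the core is a part, and every GCGTG also contains the CGTG shared with the hypoxia response element. The window of Cyp1a1 held 4 cores, 3 of them within the longer motif, a number that 2 of 21757 protein-coding promoters of the same length reached (0.00919%). Ahrr held 3 cores, 1 of them within the longer motif, while Tiparp and Aldh3a1 each held 3 cores outside it. At least 3 cores were present in 4.65% of all promoters. Cyp1b1 held 1 core, 37.0% of all promoters held at least 1, and the windows of Ahr and Arnt held none. The longer motif was present at least once in 6.07% of promoters. Over 3000 bases upstream and 50 downstream, Cyp1b1 held 13 cores and Cyp1a1 11, against 7 in Aldh3a1, 6 each in Ahrr and Tiparp, 1 in Arnt and 0 in Ahr, and 78.8% of promoters held at least 1. The longer motif occurred 6 times at Cyp1a1, 3 times at Cyp1b1, 2 times at Ahrr and 1 time at Aldh3a1 in that span, which 5430 of the 21757 promoters matched at least once. A match describes letters in a window and no binding was measured here.

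**Figure D1:**
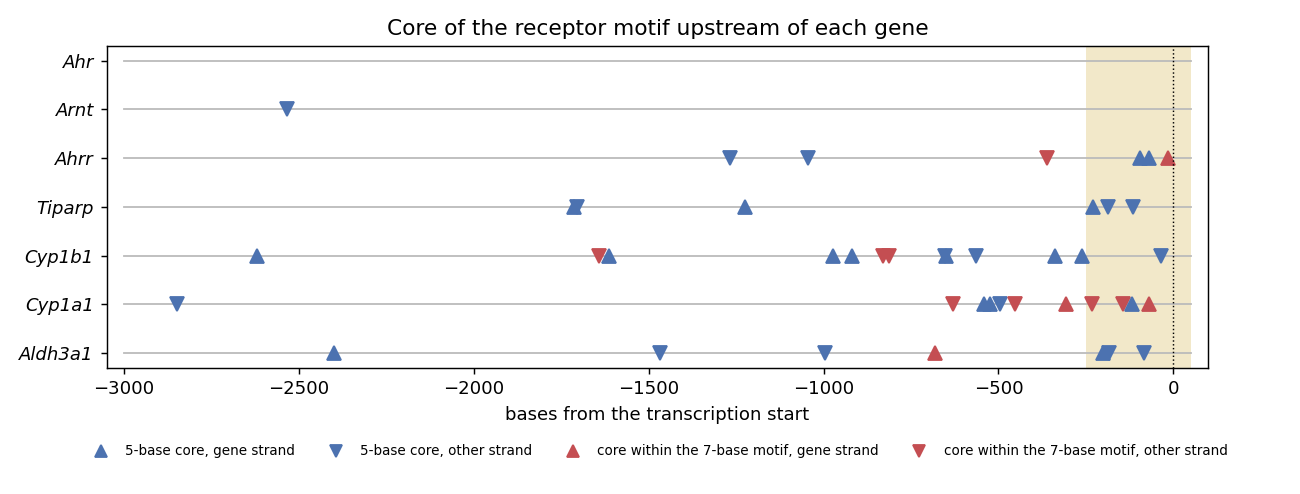
Positions of the core GCGTG on both strands (x axis, bases from the transcription start) upstream of each of the 7 genes (rows), with the printed 300-base window shaded. Upward triangles are cores on the gene's strand, downward triangles cores on the other strand, and red marks those inside TNGCGTG. Cyp1b1 (13 cores) and Cyp1a1 (11 cores) carry the most, and Ahr carries none.

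Both partners of the transcription factor were expressed before treatment. Ahr, which encodes the receptor, lies on chromosome 12 from 35547973 to 35585057 (minus strand, 11 exons in the canonical transcript). Untreated cells had 55.6 CPM, the blueberry libraries 58.5 (BLU) and 53.1 (BLU-A), and the blackberry libraries 68.9 (BLA) and 49.5 (BLA-A). The highest level was with the blackberry extract and the lowest with the blackberry nanoparticles, and the BLA library stood above the other 4. The fold over untreated was 1.24 (1.16 to 1.33) in BLA and 0.889 (0.822 to 0.961) in BLA-A. In BLU, at 1.05-fold (0.979 to 1.13), and in BLU-A, at 0.954-fold (0.886 to 1.03), the interval included no difference. Between BLA-A and BLU-A the interval also included no difference with TMM (0.932-fold, 0.861 to 1.01), but not with total counts in place of TMM (0.817-fold, 0.755 to 0.884). Both nanoparticle libraries were below the library of their own extract, at 0.718-fold (0.666 to 0.773) for BLA-A over BLA and 0.908-fold (0.845 to 0.976) for BLU-A over BLU. Among 9765 genes with a mean of at least 10 CPM, patterns near to that of Ahr were those of Itfg2 (0.02) and Scfd1 (0.03). The value in brackets is the root mean square difference of log2 levels over the 5 libraries, each centred on its mean.

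Arnt encodes the partner that the receptor shares with the hypoxia-inducible factors, and lies on chromosome 3 from 95341365 to 95404551 (plus strand, 22 exons). Its level was 59.3 CPM without treatment, 66.5 with BLU, 66.3 with BLU-A, 68.9 with BLA and 76.9 with BLA-A. The 4 treated libraries were all above the untreated one. The log2 fold changes, on CPM plus 0.5, were 0.16 for both blueberry preparations, 0.21 for BLA and 0.37 for BLA-A. BLU, BLU-A and BLA could not be told apart by counting error (BLU-A over BLU 0.997-fold, 0.933 to 1.07, and BLA over BLU 1.04-fold, 0.971 to 1.11). BLA-A stood above BLA by a log2 difference of 0.16 with TMM (fold interval 1.04 to 1.19), but not with total counts (0.997-fold, 0.934 to 1.06). Agfg1, Ints9 and Zcchc2 had the nearest patterns (root mean square difference 0.02 each).

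**Figure D2:**
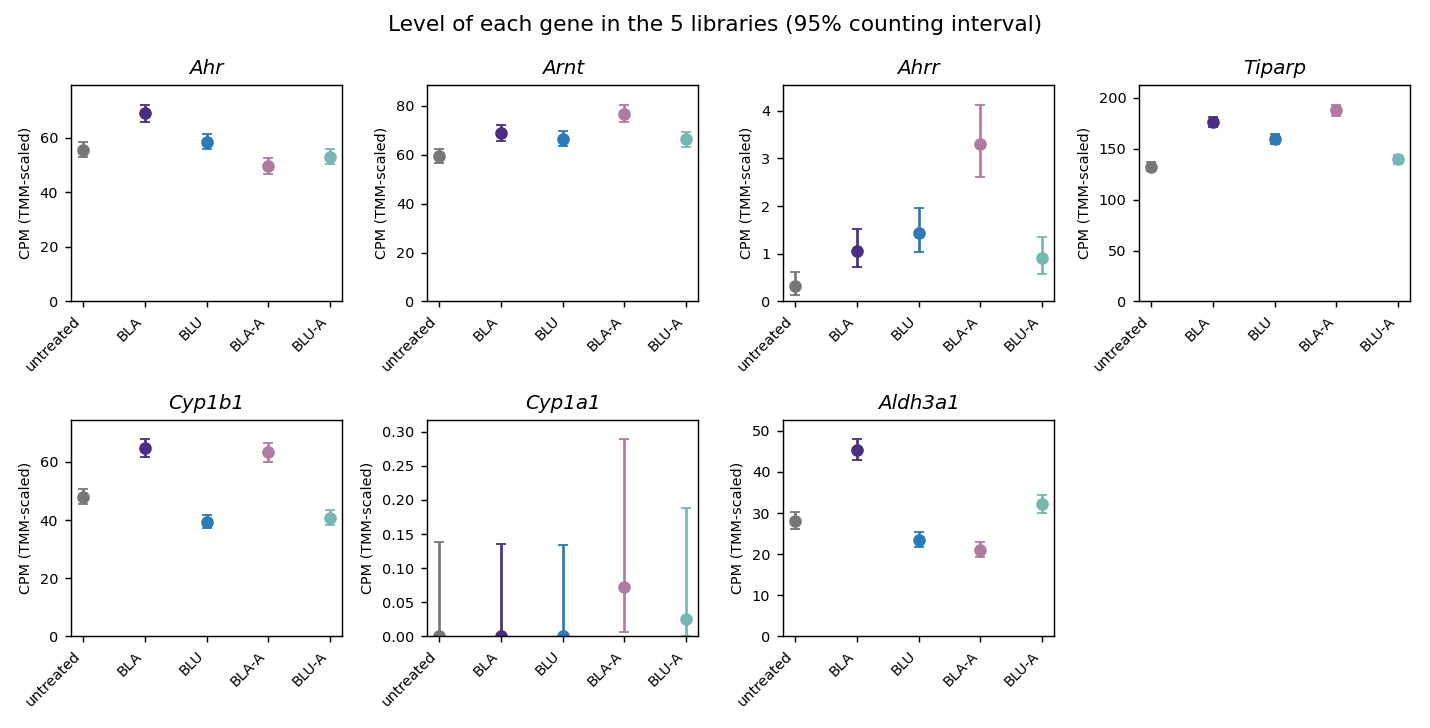
Level of the 7 genes in the 5 libraries (y axis, TMM-scaled CPM from 0, a separate scale for each gene). Points are libraries and bars the 95% counting interval. Ahrr is lowest in untreated cells (0.325 CPM) and highest in BLA-A (3.30 CPM), Cyp1b1 is higher in both blackberry libraries than in both blueberry libraries, and Cyp1a1 stays within a few counts of 0.

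The largest change among the 7 genes was that of the repressor. Ahrr encodes a protein that competes with the receptor for ARNT and for the motif, and lies on chromosome 13 from 74359237 to 74440462 (minus strand, 11 exons). Its 3 columns held 7 to 10 counts without treatment, 36 to 44 with BLU, 19 to 27 with BLU-A, 29 each with BLA and 72 to 84 with BLA-A. The columns were taken as read subsets of 1 library, so these ranges describe counting only and are not a spread between cultures. In CPM the untreated level was 0.325, and the treated levels were 1.44 (BLU), 0.905 (BLU-A), 1.06 (BLA) and 3.30 (BLA-A). Against untreated cells the fold was 4.43 (2.05 to 10.1) for BLU, 2.78 (1.20 to 6.56) for BLU-A, 3.27 (1.45 to 7.57) for BLA and 10.1 (4.86 to 22.1) for BLA-A. The wide intervals rest on the mean of 8.67 counts in untreated cells.

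On the scale used for all genes, log2 of CPM plus 0.5 against untreated, the value of Ahrr was 1.23 with BLU, 0.77 with BLU-A, 0.92 with BLA and 2.20 with BLA-A. A gene was counted as past the threshold when this value was over 1 in size, among the 17647 genes that reached 1 CPM in 1 or more libraries. Of the 7 genes, 6 passed that filter, and Ahrr passed it only through its treated libraries. None of the 6 was past the threshold upward in BLA, beside 7.92% of all genes, and none in BLU-A, beside 3.38%. Ahrr alone was past it upward in BLU, beside 5.69%, and in BLA-A, beside 8.57%. None of the 6 was past it downward in any treatment, beside 4.65% of genes for BLU, 4.53% for BLU-A, 8.56% for BLA and 12.3% for BLA-A. The value of Ahrr exceeded that of 99.2% of all genes with BLA-A, 90.6% with BLA, 96.9% with BLU and 93.5% with BLU-A. Entry to the filtered genes through treated libraries favours a high rank, so nothing is read from these ranks or from the calls of Ahrr. Genes at low levels passed the threshold more often. Among the 3353 genes whose mean level lay within a factor of 2 of that of Ahrr, 33.6% were past the threshold in either direction with BLA-A, 32.8% with BLA, 21.4% with BLU and 18.2% with BLU-A. Around the levels of the other 5 genes the share in BLA-A was 9.33% to 13.8%. The call also moved with the pseudocount. With 0.1 CPM in place of 0.5, Ahrr was past the threshold in all 4 treatments (log2 fold changes 1.86 for BLU, 1.24 for BLU-A, 1.45 for BLA and 3.00 for BLA-A), and with 2 CPM it was past it in BLA-A alone (1.19). The nearest patterns were farther off than for Ahr and Arnt, with root mean square differences of 0.24 each for Basp1, Mir1a-1hg and Gm46591.

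**Figure D3:**
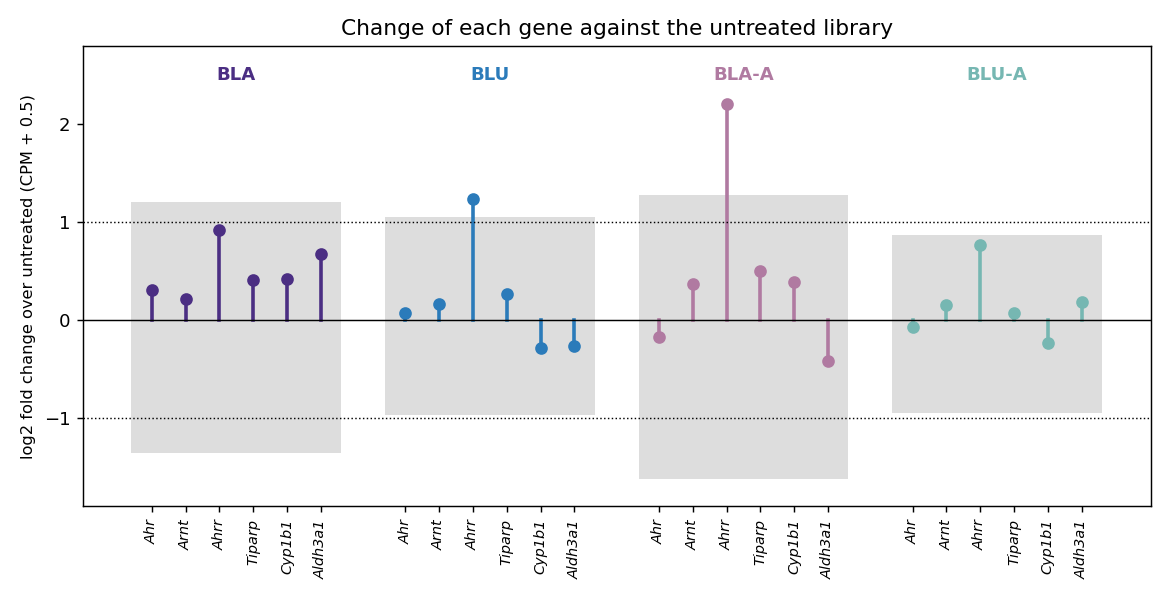
Log2 fold change over untreated (y axis, CPM plus 0.5) of the 6 genes that passed the filter, by treatment. Grey boxes span the central 90% of all 17647 genes and dotted lines mark 1 and -1. Only Ahrr in BLU (1.23) and BLA-A (2.20) lies beyond 1, and all other values lie inside the grey boxes.

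Tiparp, which encodes the ADP-ribosyltransferase that modifies and restrains the receptor, was the most abundant of the 7. It lies on chromosome 3 from 65435320 to 65463365 (plus strand, 6 exons). Untreated cells had 132 CPM, and treated cells 159 (BLU), 139.8 (BLU-A), 176 (BLA) and 188 CPM (BLA-A). All 4 treated libraries were above the untreated one, with BLU-A the lowest of them at 1.06-fold (1.01 to 1.11), BLU next and both blackberry libraries above BLU. The order of the blackberry libraries depended on the scaling. BLA-A over BLA was 1.07-fold (1.02 to 1.11) with TMM, 0.954-fold (0.916 to 0.994) with total counts and 1.01-fold (0.966 to 1.05) with 1 CPM required in every library. The log2 fold changes, 0.27 for BLU, 0.08 for BLU-A, 0.41 for BLA and 0.50 for BLA-A, lay between the 59.1% and the 76.6% point of all genes. The nearest patterns were those of Ltbp1, Cgrrf1 and Scrn1 (0.03 each, root mean square difference of log2 values). Arnt and Tiparp, like 19.4% of all genes tested, were above untreated in all 4 treatments. So was Ahrr, from which nothing is read here, since it entered the 6 only through its treated libraries. None of the 6 was below untreated in all 4, as were 19.3% of genes. The 4 values of a gene share the single untreated library.

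Cyp1b1, which encodes an oestrogen- and polycyclic-hydrocarbon-oxidising P450, divided the libraries by berry. It lies on chromosome 17 from 80008966 to 80022532 (minus strand, 3 exons). Its level was 48.0 CPM without treatment, 64.7 with BLA, 63.3 with BLA-A, 39.4 with BLU and 40.8 with BLU-A. Both blackberry libraries were above the untreated one and both blueberry libraries below it. The folds over untreated were 1.35 (1.25 to 1.45) in BLA and 1.32 (1.22 to 1.42) in BLA-A, against 0.821 (0.756 to 0.891) in BLU and 0.850 (0.783 to 0.922) in BLU-A. The blueberry forms could not be told apart by counting error (BLU-A over BLU 1.04-fold, 0.950 to 1.13). Nor could the blackberry forms with TMM (BLA-A over BLA 0.978-fold, 0.912 to 1.05), but BLA-A was below BLA with total counts (0.874-fold, 0.815 to 0.938) and with 1 CPM required in every library (0.923-fold, 0.860 to 0.989). Blackberry exceeded blueberry by 1.64-fold (1.52 to 1.77) among the extracts and by 1.55-fold (1.43 to 1.68) among the nanoparticles. Ufl1 (0.03), Def8 (0.05) and Nucb2 (0.05) had the nearest patterns by the same root mean square difference.

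Cyp1a1, the gene most often used as a readout of the active receptor, was at the limit of detection throughout. It lies on chromosome 9 from 57595211 to 57611107 (plus strand, 7 exons). All 3 columns were at 0 counts in untreated cells, in BLA and in BLU, where 3 counts, the limit taken for a count of 0, equal 0.113, 0.110 and 0.109 CPM and the two-sided exact Poisson intervals reach 0.138, 0.135 and 0.134 CPM. BLA-A had 1 to 2 counts per column and BLU-A 0 to 1. All 5 libraries were at or under 3 counts, so no fold is given, and a difference between the conditions was not detectable at this depth. The neighbouring family member Cyp1a2 was at 0 in 4 libraries and at a mean of 3.67 counts in BLU-A.

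Aldh3a1, an aldehyde dehydrogenase induced through the receptor in liver and carcinoma cells, was lower with the nanoparticles than with the extract of blackberry and higher with those of blueberry. It lies on chromosome 11 from 61098363 to 61109247 (plus strand, 11 exons). Untreated cells had 28.1 CPM, extract-treated cells 45.3 (BLA) and 23.4 (BLU), and nanoparticle-treated cells 21.0 (BLA-A) and 32.1 (BLU-A). BLA and BLU-A were above untreated, at 1.61-fold (1.47 to 1.77) and 1.14-fold (1.03 to 1.26), while BLU and BLA-A were below it, at 0.833-fold (0.748 to 0.925) and 0.747-fold (0.664 to 0.838). BLA-A was at 0.463-fold of BLA (0.416 to 0.515), a log2 difference of -1.09. That pair of libraries differed by over 1 at 24.5% of all genes. BLU-A was at 1.37-fold of BLU (1.24 to 1.52), a log2 difference of 0.45. The difference between these 2 effects was not tested, since each rests on 1 library per condition. The patterns nearest to Aldh3a1 were those of Gm38469 (0.06), Aasdh (0.08) and Bbs4 (0.09). Of the 5 other aldehyde dehydrogenases that passed the filter, of 7 listed, none was past the threshold in any treatment. Near the level of Aldh3a1, 13.8% of genes were past it with BLA-A and 5.65% with BLA, so this count says little. Aldh2, the most abundant, had log2 fold changes of -0.30 for BLU, -0.05 for BLU-A, -0.47 for BLA and 0.06 for BLA-A.

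**Figure D4:**
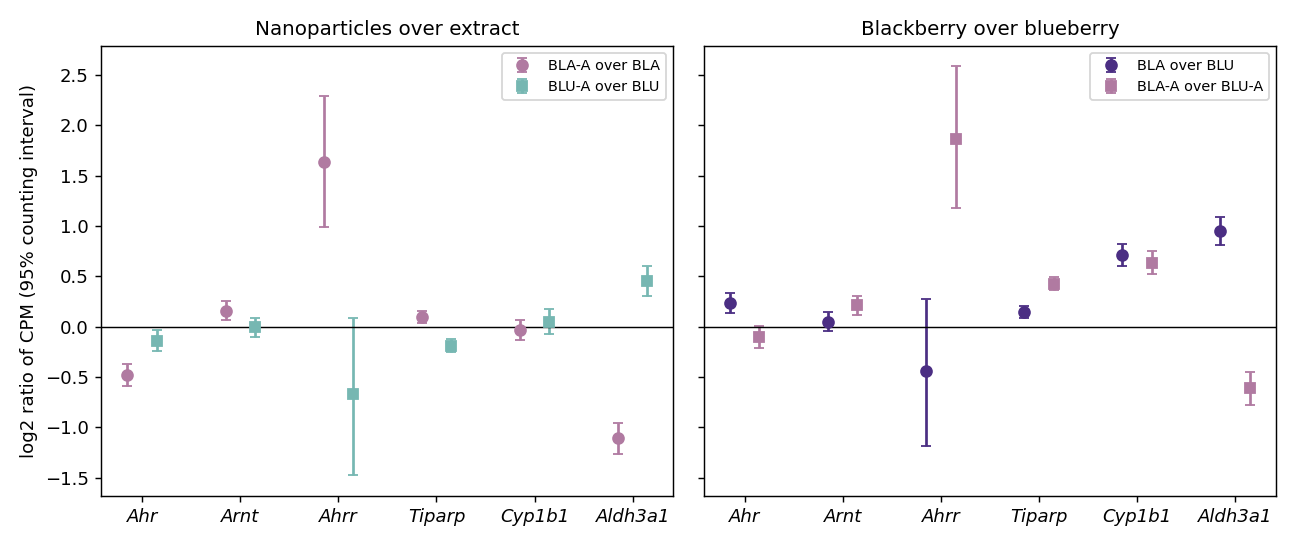
Log2 ratios of CPM between pairs of treated libraries (y axis, points with 95% counting intervals) for the 6 genes that passed the filter, nanoparticles over extract on the left and blackberry over blueberry on the right. Aldh3a1 lies below 0 for BLA-A over BLA and above 0 for BLU-A over BLU, and Cyp1b1 lies above 0 in both comparisons of the berries.

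Divided by the exonic length of the canonical transcript, the untreated levels ran from Tiparp (25.8 CPM per kb) through Aldh3a1 (15.8), Arnt (12.6), Ahr (9.99) and Cyp1b1 (9.26) to Ahrr (0.0682) and Cyp1a1 (0). The intervals of Ahr (9.49 to 10.5) and Cyp1b1 (8.76 to 9.78) overlapped, while the other neighbours down to Ahrr did not. Introns were counted with exons, so the order also depends on unspliced RNA, which the lengths leave out. Tiparp overlaps the antisense lncRNA genes Gm38503 and Gm34924, which had 0 to 14 counts in each library. Ahr and Ahrr also overlap lncRNA genes on the opposite strand (Gm48236 and Gm61398), and Arnt holds a processed pseudogene, Gm42672, in an intron. No counts of these 3 were used here, and how the strand of merged mates was treated is not given in the sources used here, so reads of such partners could not be told apart from those of the named gene.

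Across the 5 libraries 3 fits over all 17647 genes were possible with edgeR's quasi-likelihood test and Benjamini-Hochberg adjustment. None of the 6 genes had an adjusted p under 0.05 in any of them. The 4 treated libraries against the untreated one gave 0.0227% of all genes, or 4, and the lowest adjusted p of the 6 genes was 0.999. Ahrr had the largest difference there, a fitted log2 fold change of 2.29 (standard error 1.21, edgeR). It entered the fits only through its treated libraries, which all share the single untreated library, so nothing is read from that difference. Nanoparticles against extracts, within berry, gave 0.0283% of genes, and the lowest adjusted p among the 6 was 0.883, for Ahr (log2 difference -0.25, standard error 0.30, lower in 2 of 2 pairs, edgeR). Blackberry against blueberry, within form, gave 0.0397% of genes. The strongest of the 6 was Cyp1b1, with a log2 difference of 0.73 (standard error 0.31, unadjusted p = 0.0339, adjusted p = 0.994, edgeR), higher with blackberry in 2 of 2 pairs. Without adjustment, 481, 1183 and 812 genes had a p under 0.05 in the 3 fits, among them 1 of the 6 genes, Cyp1b1. The spread in these fits is that between treatments, since no condition has a replicate. An exact two-sided permutation test cannot go below 0.2 for 1 library against 4, or below 0.333 for 2 against 2. Scaling by total counts in place of TMM lowered the BLA-A log2 fold changes of Arnt, Tiparp and Cyp1b1 to 0.18, 0.31 and 0.20, without a change of direction.

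None of the other genes known as targets of the receptor passed the threshold upward in any treatment. Of all genes tested, 5.69% passed it upward in BLU, 3.38% in BLU-A, 7.92% in BLA and 8.57% in BLA-A. At such shares a count of 0 says little for a list of this size. Of 11 listed, 6 passed the filter, and their median log2 fold change was -0.05 for BLU, -0.16 for BLU-A, -0.08 for BLA and 0.14 for BLA-A, beside medians of all genes between -0.013 and 0.00014. The 7 genes themselves, 6 of which passed the filter, had medians of 0.12 for both blueberry preparations, 0.42 for BLA and 0.38 for BLA-A. These medians include Ahrr, which passed the filter only through its treated libraries, so nothing is read from them. Serpinb2, a protease inhibitor, was past the threshold downward in BLU-A, beside 4.53% of all genes. There all 3 of its columns were at 0, beside a mean of 22 counts in untreated cells and 53.7 in BLU. Nfe2l2, the most abundant of the list, encodes NRF2 and was at 252 CPM without treatment, 212 with BLU, 247 with BLU-A, 229 with BLA and 163 with BLA-A. The quinone reductase Nqo1, which was chosen after its values were seen, was at 15.7, 10.2, 12.8, 9.93 and 26.3 CPM in that order. Ugt1a6a and Ugt1a6b were at 0 counts in every library.

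Genes that act with the receptor before and after it enters the nucleus were also read. Hsp90ab1, which encodes an HSP90 chaperone that holds the receptor in the cytoplasm, was at 2206 CPM without treatment, 1656 with BLU, 1799.5 with BLU-A, 1558 with BLA and 3242 with BLA-A. Hsp90aa1, the other HSP90 gene of that list, was at 484, 385, 353, 332 and 355 CPM in the same order. Of the 8 coregulators none was past the threshold. Genes near the level of Tiparp passed it at 9.33% with BLA-A and 3.49% with BLA, so a count of 0 says little. Crebbp, the most abundant, was at 331 CPM without treatment and ranged from 354 (BLU-A) to 400.2 CPM (BLA-A) with it. Of the 9 genes that make or use kynurenine, a tryptophan metabolite and ligand, 5 passed the filter. Ido2 was past the threshold downward in BLA-A (2.46 to 0.835 CPM), beside 12.3% of all genes. Tdo2, which passed the filter only through BLU-A, was past it upward there (0.488 to 1.67 CPM), beside 3.38%. Both were at low levels. Genes near the level of Ahrr passed the threshold in either direction at 33.6% with BLA-A and 18.2% with BLU-A, so nothing is read from these calls. Afmid, the most abundant, lay between 30.0 and 51.6 CPM. Il4i1 was at 0 counts in every library. The 4 other PARP genes listed with Tiparp were within the threshold, which says as little, with Zc3hav1 between 174 and 178 CPM.

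Other genes share the bHLH-PAS fold with the receptor and ARNT. Of 13 family members, 11 passed the filter. Of these, 4 were past the threshold downward with BLA-A, beside 12.3% of all genes, and 2 with BLA, beside 8.56%. With BLU and BLU-A, 1 each was past it downward, beside 4.65% and 4.53%. Hif3a was past it upward with BLU, beside 5.69%, but passed the filter only through that library. All that passed the threshold were below 10 CPM in untreated cells. Genes near the level of Ahrr passed the threshold in either direction at 33.6% with BLA-A, so the counts are a description of the list only. The circadian factor Npas2 was below untreated in all 4 treatments, at 2.63 CPM without treatment and 0.701 (BLU), 0.805 (BLU-A), 0.135 (BLA) and 0.360 CPM (BLA-A) with it. Sim2 (-1.54), Npas3 (-1.24) and Arnt2 (-1.15) were past the threshold in BLA-A, and Npas1 (-1.31) in BLA, as log2 fold changes. Hif3a was at 29 counts in BLU and at 3 or fewer in the other libraries. Hif1a, the most abundant, was at 301 CPM without treatment, 295 with BLU, 297 with BLU-A, 267 with BLA and 452 with BLA-A.

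The hypoxia-inducible factors also pair with ARNT, and several genes known as their targets were past the threshold upward in the blackberry libraries. Of 10 listed, 6 were past the threshold upward in BLA-A, beside 8.57% of all genes, and 3 in BLA, beside 7.92%. The 6 include Adm, which passed the filter only through BLA-A (2.99 CPM), so its upward call there is not read as a result. The list was chosen with earlier results of these data known, so the counts are a description of the list only. None was past the threshold upward in BLU, beside 5.69%, or in BLU-A, beside 3.38%. Downward, 1 was past it in BLA, beside 8.56%, and 2 in BLU, beside 4.65%. The glucose transporter Slc2a1 was at 91.3 CPM without treatment, 123 with BLU, 102 with BLU-A, 179 with BLA and 472 with BLA-A. The carbonic anhydrase Car9 was at 3.24, 4.37, 3.41, 10.4 and 14.3 CPM in the same order. Ndrg1 was at 161 CPM without treatment, 349 with BLA and 471 with BLA-A. The angiogenic factor Vegfa was at 92.7 CPM without treatment, 133 with BLA and 249 with BLA-A. Ankrd37 was higher in BLA (1.14) and lower in BLU (-1.58), and Adm, at 18 counts in untreated cells, was past the threshold upward in BLA-A (1.57) and downward in BLU (-1.23) and BLA (-1.005). Car9 and Ankrd37, among the 3 called in BLA, were at low levels in untreated cells (3.24 and 2.90 CPM). Low genes passed the threshold more often, with 32.8% in BLA and 33.6% in BLA-A near the still lower level of Ahrr, in either direction. Ldha, the most abundant, was at 449 CPM in untreated cells and 721 in BLA-A. The medians of the list, Adm included, were 0.11 for BLU, -0.08 for BLU-A, 0.74 for BLA and 1.24 for BLA-A. A part of the receptor or of ARNT in these values was not tested. Of 7 NRF2 targets, Hmox1, haem oxygenase, was past the threshold in BLA-A alone, where 8.57% of all genes were past it upward. It was at 22.7 CPM there and 3.61 in untreated cells. Txnrd1, the most abundant, was at 133 CPM in BLA-A and between 166 and 201 CPM in the other libraries.

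**Figure D5:**
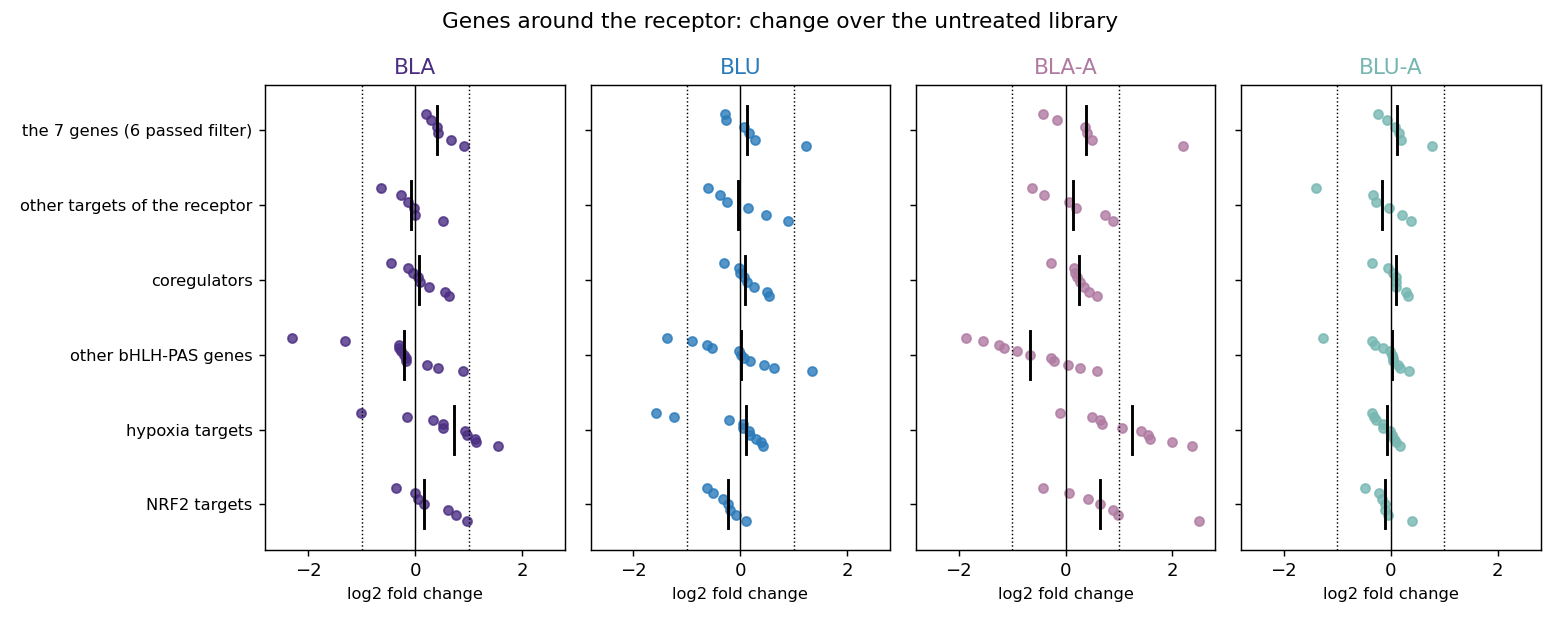
Log2 fold change over untreated (x axis, CPM plus 0.5) of the genes in 6 groups (rows) in each treatment (panels). Points are genes that passed the filter, black bars the median of the group and dotted lines 1 and -1. Hypoxia targets lie to the right in BLA-A (median 1.24) and BLA (0.74), while the receptor's other targets lie around 0. The medians include Ahrr and Adm, which passed the filter only through treated libraries, and the lists were chosen with earlier results known.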

How the data were processed

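The processed files of bulk RNA-seq from 4T1 cells, untreated or given 1 of the 4 berry preparations, were analysed. The authors deposited raw counts per gene, after removal of ribosomal RNA, alignment to GRCm39 with STAR and counting on whole genes, introns included, in OmicsBox, and the labels also name DESeq2 1.36.0. Deposited tables of the authors' own comparisons (fold changes, p-values and enrichment scores) were not used.

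The 15 columns were matched to samples by name, and the 3 of a condition were averaged into 1 library. The batch labels give dates that do not recur across conditions, so date and treatment cannot be told apart. The 17647 genes that reached 1 CPM in 1 or more libraries were retained. TMM scaling used edgeR 4.0.16, and 0.5 CPM was added before taking log2 fold changes. Intervals are exact Poisson intervals of a level and exact binomial intervals of a ratio, at 95%, and cover counting error only. The tests were edgeR quasi-likelihood tests on mean counts rounded to whole numbers, with Benjamini-Hochberg adjustment at 0.05. The standard error is the fold change divided by the root of its F statistic. DESeq2 1.42.0 was an alternative. Since the columns were taken as read subsets, p-values measure the spread between conditions, not between cultures.

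The genes and lists were chosen with earlier results of these data known. From each list the text names genes whose log2 fold change exceeded 1 in either direction, at most 6 by size, and the gene with the highest mean CPM, and for each of the 7 genes above the filter the 3 nearest patterns, and an item that this would name is not reported here. Cyp1a2, Il4i1, Ugt1a6a, Ugt1a6b, Nqo1 and Hsp90aa1 are not named by this rule. Their values had been seen when they were chosen. Promoters and positions come from the GRCm39 genome and GENCODE M39. R 4.3.3, Python 3.11.15 and matplotlib 3.10.9 were used.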

Additional observations from a re-analysis of the deposited data

Results flagged for a closer look

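Effects that pointed in opposite directions in 2 groups were seen for Cyp1b1, Ahr, Aldh3a1 and Tiparp. How often all genes show such effects was not computed, so nothing is read from their number. None of these differences was tested against replicates, since each condition had 1 library. Cyp1b1 was above untreated in both blackberry libraries and below it in both blueberry libraries, a difference of 0.67 between the mean log2 fold changes of the berries. Ahr was above untreated in both extract libraries and below it in both nanoparticle libraries, with a difference of -0.31 for nanoparticles minus extracts. Its counting intervals in BLU and BLU-A included no difference from untreated. The log2 difference of nanoparticles over extract was negative for Aldh3a1 with blackberry and positive with blueberry, and the 2 were -1.54 apart. For Tiparp it was positive with blackberry and negative with blueberry, 0.28 apart, with TMM. The opposite directions of Tiparp were lost with total counts, where the blackberry difference was -0.067, and with 1 CPM required in every library it was 0.0096 with a fold interval of 0.966 to 1.05. Groups of 3 columns were too small for a check of single outlying samples.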

How the results depend on the processing

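The direction of each gene's log2 fold change in single treatments held in all 212 values of the alternatives run. The number of the 7 genes past the threshold went from 0 to 1 in BLA and in BLU-A with a pseudocount of 0.1 CPM, and from 1 to 0 in BLU with 2 CPM. It was 0 in BLU and BLA-A with 1 CPM required in every library, a filter that leaves Ahrr out. With total counts the median log2 fold change of all genes in BLA-A was -0.18, beside -0.012 with TMM. There Ahr moved from -0.17 to -0.36 and Aldh3a1 from -0.41 to -0.60. Differences between treated libraries were recomputed under other scalings chosen after seeing the data, and with total counts BLA-A over BLA turned from 0.093 to -0.067 for Tiparp and from 0.16 to -0.0036 for Arnt.

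The tests over all genes were less stable. Treated against untreated called 4 genes, 17 with DESeq2's Wald test, 2 with 1 CPM in every library and 34 without the BLA-A library. Nanoparticles against extracts called 5 genes, 22 with DESeq2, 118 with total counts, 208 without a filter, 0 with 1 CPM in every library and 0 without the berry term. Leaving out 1 column of each condition gave 3 to 5. Blackberry against blueberry called 7 genes, 11 with DESeq2, 90 with total counts, 108 without a filter, 0 with 1 CPM in every library and 0 without the form term. None of the 7 genes was among the calls of these settings. The causes were not tested.

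With each column treated as a sample of its own, the 3 tests called 3553, 11062 and 9696 genes without the replicate number as a block and 2498, 9694 and 8297 with the replicate block, including between 1 and 4 of the 7 genes. These columns were taken as subsets of 1 library. Same-numbered columns did not deviate together (correlations between -0.020 and 0.015 over 30 pairs), so the numbers do not pair the samples.

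Small test differences changed sign. Treated against untreated, Ahr was at -0.0085 with total counts and -0.053 without BLA, Cyp1b1 at -0.0076 and Aldh3a1 at -0.14 without BLA. Nanoparticles against extracts with total counts, Arnt was at -0.0013, Cyp1b1 at -0.070 and Tiparp at -0.13, and Tiparp was at -0.039 with 1 CPM in every library. Blackberry against blueberry with total counts, Ahr was at -0.039. At 3 counts or fewer the depth sets the limit for Cyp1a1.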
